A study of Mus musculus with 26 samples.

Results

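Deathless (D-) and wild-type (WT) S49 cells, 2 lines of a mouse T lymphoma, were compared before any treatment. The comparison rests on 4 single-colour Affymetrix arrays of untreated D- cells and 4 of untreated WT cells, out of 26 arrays in the study. It covers every probe set whose log2 intensity reached 5 or more on at least 3 of the 26 arrays, which are 12724 of 22626 probe sets and stand for 7435 of 12393 genes. The 8 arrays share 1 culture condition: suspension culture in Dulbecco's medium with heat-inactivated horse serum and HEPES, with no agent added. The labels print the growth text of D- cells for both lines. The other 18 arrays are the same lines after 2, 6 or 24 h with 8-CPT-cAMP, a cAMP analogue that enters cells, with 3 arrays per line and time. They served here to estimate the spread and to set each line difference beside the same difference in separate samples. The labels call the replicates biological, do not describe separate cultures, and do not say how D- was derived or whether it is 1 clone. The p-values therefore measure the spread between these samples, and a difference of line cannot be told apart from a difference of culture or hybridisation that followed the lines.

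Cyclic AMP (cAMP) is made by adenylyl cyclases and binds the regulatory subunits of protein kinase A (PKA), which frees its catalytic subunits to phosphorylate targets such as the transcription factor CREB. WT S49 cells stop dividing and die by the mitochondrial pathway of apoptosis when cAMP stays high, whereas D- cells stop dividing and live. In that pathway the BH3-only proteins, among them Bim (Bcl2l11), oppose survival proteins such as Bcl2 and Mcl1. S49 cells carry features of thymocytes, the T cell precursors that rearrange their receptor genes with Rag1 and Rag2 and display a pre-receptor built with Ptcra. The untreated arrays show what already differed between the lines before cAMP was raised.

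The largest bounded differences were those of Ifitm2 and Cd247, higher in WT cells, and of Amot and Slfn4, higher in D- cells. Their promoter sequences are shown because these 4 genes had the largest bounds on the difference, taken from the brighter mean down to log2 5, among genes with a mean under 5 in the other line, 2 in each direction. Each line gives the 250 bases before the RefSeq start of the gene in build GRCm38.p6, 5′ to 3′ on the strand of the gene, with every CG pair in capitals. The Ifitm2 window (chr7:140955962-140956211, minus strand) holds 2 CG pairs, and the windows of Cd247 (chr1:165788431-165788680, plus strand), Amot (chrX:145487640-145487889, minus strand) and Slfn4 (chr11:83174936-83175185, plus strand) hold 3 each.
Ifitm2: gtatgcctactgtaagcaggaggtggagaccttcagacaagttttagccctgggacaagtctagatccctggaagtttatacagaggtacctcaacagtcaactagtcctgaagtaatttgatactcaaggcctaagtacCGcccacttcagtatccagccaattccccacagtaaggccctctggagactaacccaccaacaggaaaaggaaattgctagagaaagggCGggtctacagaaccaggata
Cd247: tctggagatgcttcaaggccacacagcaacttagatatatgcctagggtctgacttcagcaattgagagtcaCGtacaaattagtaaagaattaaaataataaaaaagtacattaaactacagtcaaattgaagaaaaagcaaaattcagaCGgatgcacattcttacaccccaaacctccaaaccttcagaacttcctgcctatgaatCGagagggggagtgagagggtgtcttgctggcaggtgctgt
Amot: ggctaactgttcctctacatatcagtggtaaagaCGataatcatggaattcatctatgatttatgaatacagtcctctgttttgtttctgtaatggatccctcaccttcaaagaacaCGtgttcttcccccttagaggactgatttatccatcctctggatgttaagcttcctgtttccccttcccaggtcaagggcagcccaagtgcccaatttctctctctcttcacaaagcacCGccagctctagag
Slfn4: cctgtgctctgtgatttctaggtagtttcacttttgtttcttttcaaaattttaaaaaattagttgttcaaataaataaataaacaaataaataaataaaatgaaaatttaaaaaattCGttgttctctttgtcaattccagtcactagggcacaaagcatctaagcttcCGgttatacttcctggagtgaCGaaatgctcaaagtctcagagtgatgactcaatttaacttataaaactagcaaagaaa
Over the 6109 tested genes with a promoter in the RefSeq table, the median was 17 CG pairs in these 250 bases. It was 13 over the 186 called lower in D- and 16 over the 113 called higher.

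Between untreated D- and WT cells, 372 of 7435 genes differed at an adjusted p under 0.05 in limma's test (5.0% of the genes tested). In D- cells 142 of them were higher (1.91% of all genes) and 230 lower (3.09%). The difference reached 2-fold in 116 (1.56%), of which 52 were higher (0.699%) and 64 lower (0.861%). By probe set, 577 of 12724 were called (4.53%), 228 higher (1.79%) and 349 lower (2.74%), and 185 of these reached 2-fold (1.45%), 84 higher (0.66%) and 101 lower (0.794%). Over all genes the median difference was -0.004 on the log2 scale. The 4 D- arrays did not overlap the 4 WT arrays in 859 genes (11.6%), 354 with D- above (4.76%) and 505 with D- below (6.79%). At an unadjusted p under 0.05 there were 1075 (14.5%). Where a gene had several probe sets, 132 called genes in all, none had 1 called in the other direction, and in 51 every tested probe set was called the same way. Among called genes named below, at least 1 further probe set was not called for Adcy7, Ak4, Anxa6, Arpp21, Ctsb, Epsti1 and Fli1. The same held for Ikbkg, Il16, Lcp2, Mapre2, Ndufa10, Pim1, Pkig and Tox, and for Amot and Dcps as described with them.

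**Figure D1:**
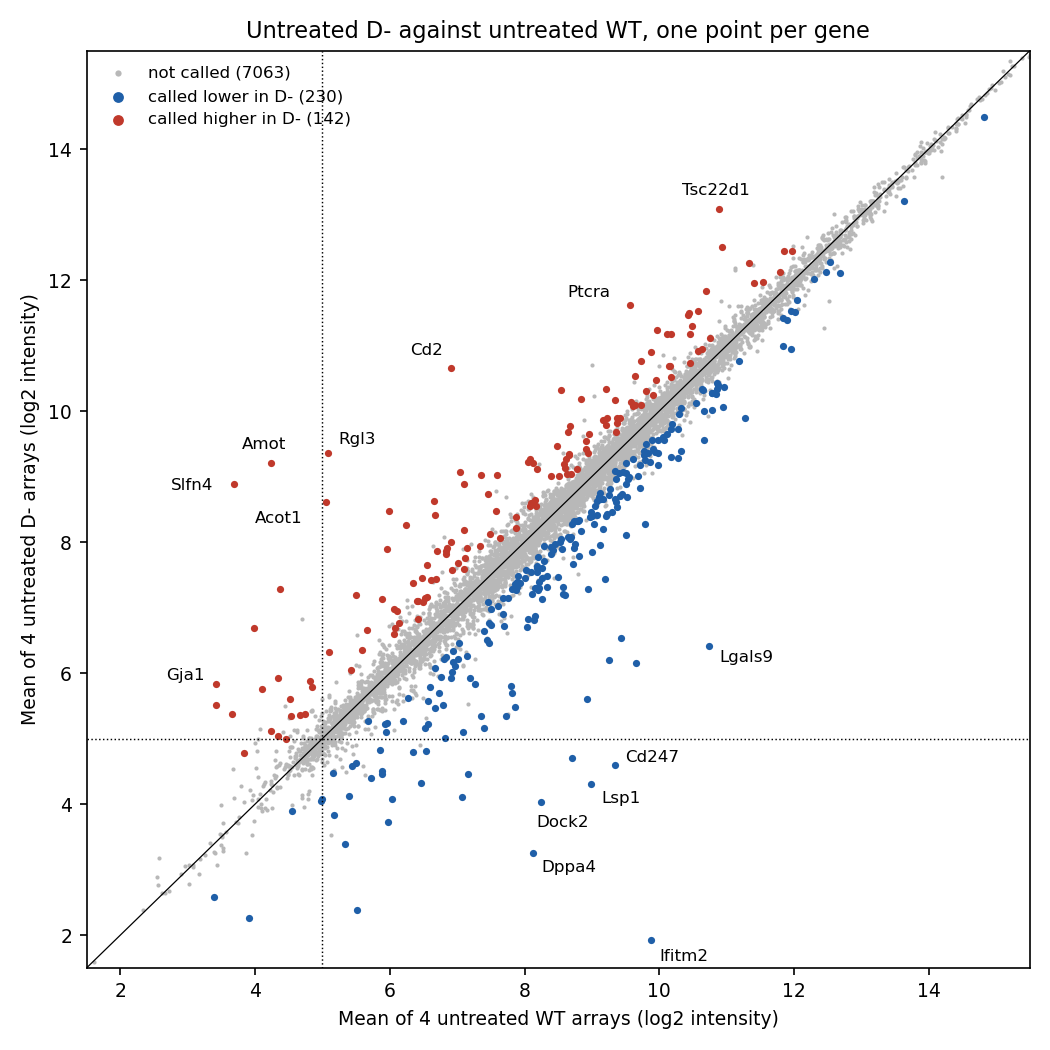
Mean log2 intensity of the 4 untreated D- arrays (vertical axis) against the 4 untreated WT arrays (horizontal axis), 1 point per gene, with 230 genes called lower in blue, 142 called higher in red and the rest in grey. The solid line marks equal levels and the dotted lines log2 5, and Ifitm2 lies farthest below the line of equal levels and Slfn4 farthest above it.

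Both lines carried T cell markers and few markers of other cells. Of 9 T cell markers on the array, 8 had a mean at or above log2 5 in WT and 7 in D-, the one apart being Cd247, and Cd5 lay under 5 in both. Means at or above 5 in both lines were found for 3 of 11 B cell, 3 of 13 myeloid, 2 of 8 erythroid, 3 of 13 stromal and 1 of 9 NK cell markers. The summed intensity of the T cell markers ran from 23850 to 28300 over the D- arrays and from 27580 to 32460 over the WT arrays, and that of the B cell markers from 224.2 to 266.4 and from 229.8 to 248.2. The stromal sum, mostly Vim, ran from 2481 to 6904 and from 3463 to 9726. The NK marker at or above 5 was Gzma, a granule protease, which was not called (log2 difference -0.62). Its arrays did not overlap between the lines, as in 11.6% of all genes. The sum of the NK markers ran from 7659 to 15370 in D- and from 15680 to 22900 in WT. The part of Gzma in other results was not tested. The defining markers Pax5, Ms4a1, Lyz2, Cd14 and Hba-a1 lay under 5 in both lines. In bulk RNA, fewer cells with a transcript and less of it per cell cannot be told apart. Arrays of 1 line correlated at r between 0.982 and 0.995 over probe sets and arrays of different lines at 0.975 to 0.984. The log2 difference between the 3′ and 5′ Gapdh probe sets, a sign of RNA integrity, was -0.04 ± 0.08 (SD, n = 4) in D- and -0.05 ± 0.15 (SD, n = 4) in WT.

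The arrays also fell into 2 clusters that the labels do not name. The sign of the first axis of deviations from the group means, 38.8% of the variance within groups, put replicates 1 and 2 of both lines in one cluster and replicates 3 and 4 in the other. With the cluster as a block, all 577 probe sets were called, among 943 called in all. The cluster was drawn from the spread of these same arrays and splits both untreated groups evenly. The block therefore leaves each untreated line difference unchanged and takes out part of the spread, so this setting is no check of the calls. Within the first cluster, 2 untreated arrays against 2, 67 probe sets were called, and within the second 889. Each of these fits also held the treated arrays of its cluster. Per-array values below are given in the order of replicates 1 to 4, so that this split can be seen.

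The largest losses in D- cells took a transcript from a clear level in WT to under log2 5. Since the deposited values have no detection call, such a difference is a lower bound, taken from the brighter mean down to log2 5. The bound takes only the mean of the dimmer line as under 5. It is not strict where an array of that line lay above 5, as for Cd247, Actn2, F13a1 and Amot. Ifitm2, an interferon-induced membrane protein that hinders virus entry, read 1.79, 1.79, 2.01 and 2.08 on the D- arrays and 9.74, 9.88, 9.83 and 10.03 on the WT arrays (log2 intensity). Every D- array lay near the lowest values of the table, and the lines were far apart. Ifitm2 was at least 29.3-fold lower in D- (limma adjusted p = 6.93e-15). Cd247, the zeta chain through which the T cell receptor signals, read 5.16, 4.20, 4.54 and 4.51 in D- and 9.37, 9.23, 9.50 and 9.27 in WT. It was at least 20.3-fold lower (limma adjusted p = 3.82e-14), and both of its probe sets were called. Lsp1, an actin-binding protein of leukocytes, read 2.94, 4.55, 4.77 and 4.93 in D- and 8.98, 8.61, 9.26 and 9.09 in WT, at least 15.8-fold lower (limma adjusted p = 2.00e-07). Lsp1 was not called within the first array cluster alone (limma adjusted p = 0.0699).

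Other genes fell below log2 5 in the same way. Dock2, which activates Rac for lymphocyte migration, read 3.18, 3.88, 4.08 and 4.96 in D- and 7.84, 7.54, 8.82 and 8.78 in WT, at least 9.47-fold lower (limma adjusted p = 1.87e-07). Actn2, an actinin that cross-links actin, was at least 13.0-fold lower, and Dppa4, a nuclear protein known from pluripotent cells, at least 8.72-fold. Dppa4 was the less even of the pair: its WT arrays read 9.30, 9.14, 6.60 and 7.46, while all D- arrays lay between 2.89 and 3.86. Pdlim2, an adaptor that limits NF-kB signalling, was at least 4.46-fold lower and Lgals7, a secreted galectin, at least 4.20-fold. The bound was 2.89-fold for F13a1, a transglutaminase of clotting, 2.75-fold for Epsti1, an interferon-responsive gene, 2.54-fold for Rasal3, which restrains Ras in T cells, and 2.04-fold for Naip2. In all, 25 genes were called lower with a D- mean under 5 and a WT mean at or above it, and 17 were called higher the other way round. Both means lay at or above 5 in 324 called genes and under 5 in 6.

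Naip2 was 1 of 3 neighbouring Naip genes on chromosome 13, sensors of bacterial proteins, that were all called lower. Naip5 read 2.34, 2.30, 2.44 and 2.45 in D- and 5.20, 3.46, 6.92 and 6.46 in WT, at least 1.42-fold lower. Naip6 was 1.97-fold lower (log2 difference -0.98 ± 0.21, SE). These genes are near copies of each other, so a probe set may read more than 1 of them.

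**Figure D2:**
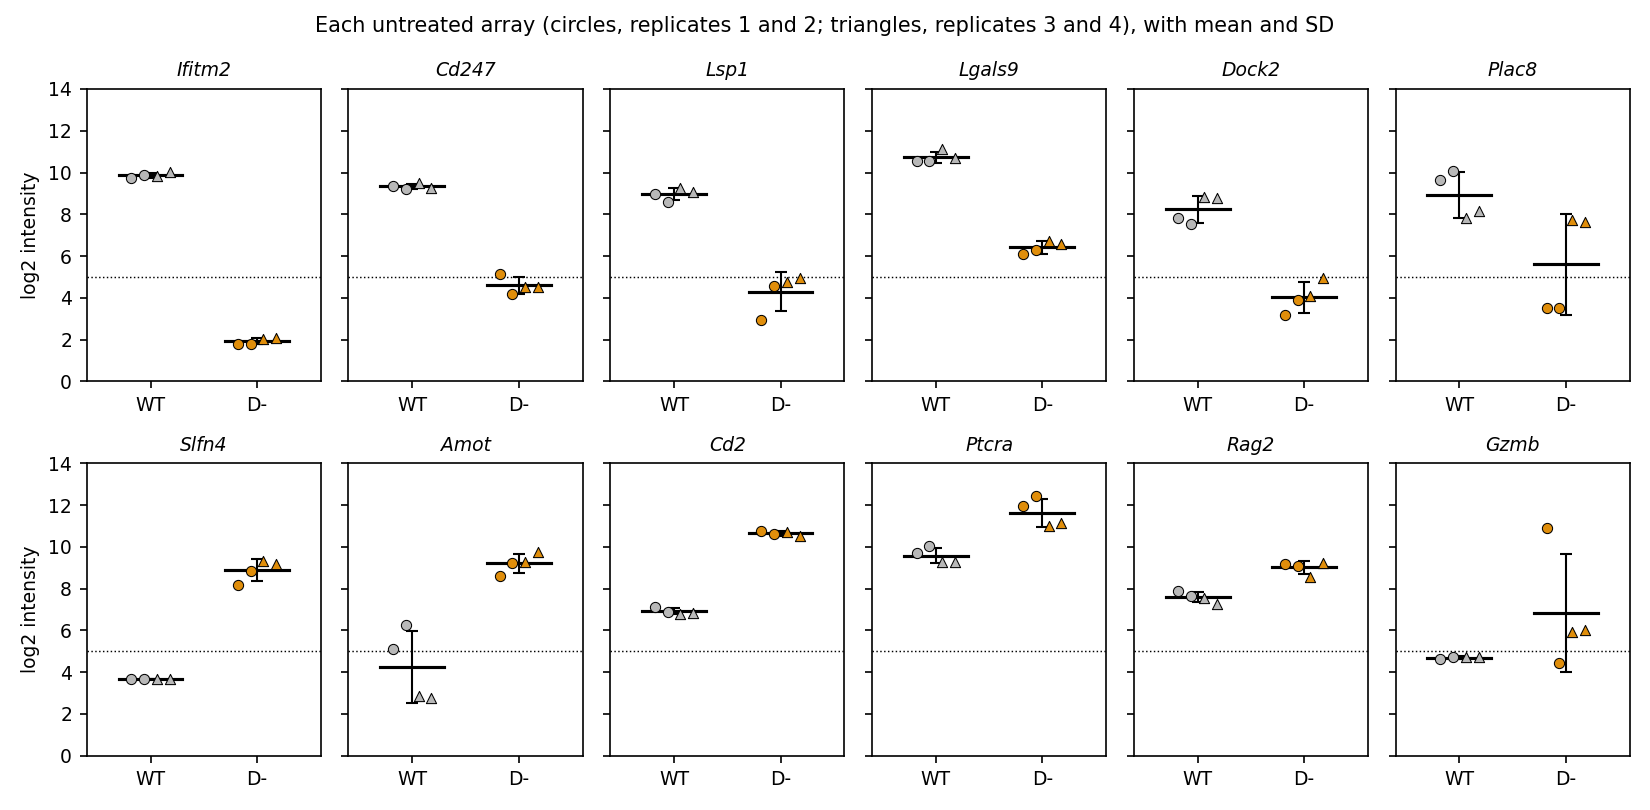
Log2 intensity of 12 genes on each untreated array, WT in grey and D- in orange, circles for replicates 1 and 2 and triangles for replicates 3 and 4, with the mean (bar), SD (whisker, n = 4) and log2 5 (dotted). The lines are apart in every panel but that of Gzmb, and Plac8 shows D- replicates 3 and 4 close to the WT arrays.

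Among genes at or above log2 5 in both lines, Lgals9 fell most. This galectin, a secreted lectin that binds sugar chains on T cells, read 6.08, 6.27, 6.74 and 6.58 in D- and 10.56, 10.56, 11.12 and 10.71 in WT, 19.95-fold lower (log2 difference -4.32 ± 0.16, SE, limma adjusted p = 3.58e-14). Next by the means were Ms4a6b, a membrane protein of the MS4A family, at 11.3-fold, Plac8 at 10.1-fold, Trat1 at 8.32-fold and Shisa5 at 7.40-fold. Plac8 differed by array: D- arrays read 3.52, 3.51, 7.71 and 7.65 and WT arrays 9.64, 10.07, 7.84 and 8.15. Its difference was -6.34 within the first cluster and -0.31 within the second, and the call was lost without D- replicate 1 or 2 or WT replicate 1, 2 or 4 (limma adjusted p up to 0.171). Ms4a6b also moved with the cluster, at 5.21, 4.85, 7.49 and 7.09 in D- and 9.23, 8.91, 10.47 and 10.03 in WT, but all D- arrays stayed below all WT arrays. A fold between means is not exact for Plac8, Ms4a6b, Cela1, Esm1, Il16, Pstpip1, Sh2d2a, Tktl1, Il12rb1 and Nfkbie, where at least 1 D- array lay under log2 5.

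The remaining lower genes with both means at or above 5 have varied roles. Trat1, an adaptor that sits with the T cell receptor, read 5.09, 6.07, 7.01 and 6.61 in D- and 9.23, 8.68, 9.51 and 9.59 in WT. Sh2d2a, a T cell adaptor that binds Lck, was 5.20-fold lower and Pstpip1, an adaptor that binds CD2 and the actin cytoskeleton, 5.19-fold. Tox, a nuclear factor needed for CD4 T cell development, was 4.00-fold lower, with D- arrays at 6.02, 5.17, 5.16 and 5.04 and WT arrays at 6.95, 6.20, 8.15 and 8.09. The lines did not overlap for any of these 4 genes. Cst7, an inhibitor of cathepsins, was 4.35-fold lower, Cela1, an elastase, 4.73-fold, and Esm1, a secreted proteoglycan, 3.98-fold. Tktl1, related to transketolase, was 3.96-fold lower, the cytokine gene Il16 3.53-fold, the membrane-binding annexin Anxa6 3.40-fold and the decapping enzyme gene Dcps 3.16-fold.

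Genes on the list of the T cell receptor complex, its nearest signalling proteins and related surface proteins were called more often than genes at large. All gene lists here were chosen with earlier results of these data known, so the share of a list is a description and not a test. Of 27 measured members, 5 were lower and 3 higher (29.6%, against 5.0% of all genes), and the median member differed by -0.24, against -0.004 over all genes. All 8 are named here, 3 of them (Cd3d, Vav1 and Ly9) after their values were seen. Beside Cd247, Lcp2 (SLP-76, the adaptor that ZAP-70 phosphorylates) read 8.18, 8.13, 7.76 and 7.74 in D- and 9.14, 8.85, 9.51 and 8.997 in WT, 2.25-fold lower (log2 difference -1.17 ± 0.18, SE, limma adjusted p = 0.000263). Sla2, a negative regulator of the receptor, was 1.49-fold lower, Vav1, which activates Rac, 1.39-fold, and the receptor chain gene Cd3d 1.28-fold. Another receptor chain gene, Cd3e, and the T cell surface gene Thy1 did not pass the test: Cd3e differed by -0.09 (95% interval -0.74 to 0.56) and Thy1 by 0.09 (-0.28 to 0.47). The call of Vav1 was lost without any 1 of D- replicates 1, 3 and 4 or WT replicates 1, 3 and 4 (limma adjusted p up to 0.116), and those of Cd3d and Ly9 without D- replicate 4 (0.0604 and 0.0553).

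The 3 receptor-related genes that were higher are surface proteins. Cd2, an adhesion molecule that helps T cells bind their targets, read 10.77, 10.60, 10.73 and 10.52 in D- and 7.12, 6.89, 6.80 and 6.85 in WT. The arrays of each line lay close together, and Cd2 was 13.4-fold higher in D- (log2 difference 3.74 ± 0.27, SE, limma adjusted p = 8.30e-09). Cd8b1, the beta chain of the CD8 co-receptor, was 2.08-fold higher, at 11.38, 11.49, 11.58 and 11.55 in D- and 10.91, 10.86, 9.96 and 10.04 in WT. Ly9, a receptor of the SLAM family, was 1.42-fold higher.

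Genes of adhesion, cytokine and NF-kB signalling gave 2 calls a list, all of them lower in D-, where 3.09% of all genes were. Of 22 chemokine receptor and adhesion genes, 2 fell (9.09% of the list), and they encode the 2 chains of the integrin LFA-1. Itgal was at least 1.26-fold lower, with D- arrays at 2.46, 3.05, 4.05 and 4.04 and WT arrays at 5.29, 5.20, 5.54 and 5.28. Itgb2 was 1.75-fold lower (log2 difference -0.80 ± 0.12, SE). Of 28 cytokine receptor and JAK-STAT genes (7.14% called), the receptor genes Il12rb1 (2.57-fold) and Il27ra (1.88-fold) fell. Of 13 NF-kB genes (15.4% called), Nfkbie, an inhibitor of NF-kB, fell 2.53-fold and Ikbkg, the regulatory subunit of its kinase, 1.33-fold. Only 1 of 3 Ikbkg probe sets was called, and the others differed by -0.17 and -0.12. The call of Ikbkg was lost without D- replicate 1 or 2 or WT replicate 3 or 4 (limma adjusted p up to 0.0762). The list of interferon-inducible genes leaves out Ifitm2 and Epsti1, which were lower in D-, and also Ifi30 and Slfn4, which were higher and are described below. None of its 33 measured members was called, against 5.0% of all genes. Of the 33 members 12 lay above 0, and the median was -0.11. Trim30a came nearest, at -1.63 ± 0.48 (SE, limma adjusted p = 0.05297), and was called in 7 of the alternatives, among them with array weights (0.0024) and in the 8 untreated arrays alone (0.0306). Ifit1 differed by -0.80 ± 0.40 (SE).

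Among genes with a WT mean under log2 5, Slfn4 and Amot had the largest bounds. Slfn4, a member of the Schlafen family of lymphoid growth regulators, read 8.19, 8.84, 9.34 and 9.18 in D- and 3.67, 3.69, 3.68 and 3.69 in WT. No WT array came near log2 5, and Slfn4 was at least 14.8-fold higher in D- (limma adjusted p = 1.66e-10). Amot, a scaffold of cell junctions and of Hippo signalling, read 8.61, 9.21, 9.26 and 9.74 in D- and 5.09, 6.24, 2.87 and 2.75 in WT, higher in D- (limma adjusted p = 4.01e-05). The bound from its means was 18.4-fold, but the WT arrays at 5.09 and 6.24 lay above log2 5, so 18.4-fold is not a minimum. Its WT arrays split with the array cluster, and its difference was 3.24 within the first cluster, where it was not called (limma adjusted p = 0.0979), and 6.69 within the second. Only 1 of 3 Amot probe sets was called: the others read 6.28 in D- and 6.24 in WT, and 4.87 and 4.26.

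Other such genes had smaller bounds. Gja1, which encodes the gap junction protein connexin 43, read 5.91, 5.98, 4.89 and 6.52 in D- and between 3.34 and 3.50 in WT, at least 1.77-fold higher, with 4 of 4 probe sets called. Cyp2c23, a cytochrome P450, was at least 4.86-fold higher and Fbln2, a protein of the extracellular matrix, at least 3.22-fold. The bound was 1.89-fold for Ak4, an adenylate kinase of mitochondria, 1.84-fold for the adhesion molecule gene Mcam, 1.72-fold for Olfml3, 1.68-fold for Galnt4, which starts O-linked sugar chains, 1.52-fold for Taf7, a subunit of TFIID, and 1.42-fold for Selenom, a selenoprotein. Fam160a2 had the smallest bound of the 12 largest, 1.30-fold. Its call was lost without any 1 of the 8 arrays (limma adjusted p 0.0602 to 0.169), that of Taf7 without D- replicate 2 or 4 or WT replicate 1 or 4 (up to 0.106), and that of Olfml3 without D- or WT replicate 2 (up to 0.0854).

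Among genes with means at or above log2 5 in both lines, Rgl3, an activator of Ral, read 9.36, 9.85, 8.72 and 9.52 in D- and 5.79, 6.03, 3.70 and 4.83 in WT. Acot1, which splits acyl-CoA into fatty acid and coenzyme A, read 9.21, 9.48, 7.87 and 7.88 in D- and 5.24, 5.96, 4.76 and 4.25 in WT. Both rose, by 19.4- and 11.8-fold between the means, but 2 of 4 WT arrays of each lay under log2 5, so these folds have no exact size and no rank. Glmp, a protein of the lysosome membrane, rose 5.65-fold. The leucine zipper factor gene Tsc22d1 read 12.95, 12.94, 13.10 and 13.33 in D- and 11.18, 11.31, 10.55 and 10.50 in WT, 4.58-fold higher, with 4 of 4 probe sets called. Hacd2, of long-chain fatty acid synthesis, rose 4.09-fold, Wif1, a secreted inhibitor of Wnt signalling, 4.05-fold, and the ATP-gated channel gene P2rx1 3.91-fold. Rell1, related to a TNF receptor, rose 3.44-fold, the lysosomal reductase gene Ifi30 3.42-fold, the adhesion gene Cadm1 3.36-fold with 4 of 4 probe sets called, Pgam2, a phosphoglycerate mutase, 3.27-fold, and Mapre2, which binds microtubule ends, 3.19-fold. Ctsl, the lysosomal protease cathepsin L, rose 2.99-fold, with D- arrays at 12.20, 11.95, 12.96 and 12.91 and WT arrays at 11.02, 11.24, 10.88 and 10.57. No D- array overlapped a WT array in any of these genes. P2rx1 and Cadm1 were not called in a fit of the 8 untreated arrays alone.

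Of 26 thymocyte genes and T lineage factors, 2 were higher and 3 lower (19.2%, against 5.0% of all genes), with a median of 0.003. Ptcra, the pre-receptor alpha chain, read 11.93, 12.42, 10.99 and 11.15 in D- and 9.70, 10.03, 9.30 and 9.26 in WT, 4.15-fold higher (log2 difference 2.05 ± 0.44, SE, limma adjusted p = 0.00588). Rag2, of the recombinase that rearranges receptor genes, read 9.20, 9.10, 8.55 and 9.24 in D- and 7.86, 7.66, 7.54 and 7.28 in WT, 2.71-fold higher (limma adjusted p = 0.000973). Both genes stood apart without overlap. Its partner Rag1 differed by 0.30 (95% interval -0.21 to 0.82) and was not called. Beside Tox, the lower genes were Ets1, described next with its neighbours, and Arpp21, a thymocyte phosphoprotein, 1.40-fold lower. The call of Arpp21 was lost without D- replicate 1, 3 or 4 or WT replicate 3 or 4 (limma adjusted p up to 0.0973).

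A stretch of chromosome 9 held 9 genes lower in D- among 10 measured neighbours, from Fli1 to Pus3. The stretch was singled out after its values were seen. In gene order it held the ETS transcription factors Fli1 and Ets1, the sialyltransferase gene St3gal4, the decapping enzyme gene Dcps, Tirap, an adaptor of Toll-like receptors, Foxred1, of complex I assembly, Srpr, a subunit of the signal recognition particle receptor, Fam118b, and the pseudouridine synthase genes Rpusd4 and Pus3. All but Tirap were called lower, where a share of 3.09% of all genes was. Of the 17 tested probe sets in the stretch, 14 were called lower. The median difference was -1.03, and the 8 genes called with both means at or above 5 lay between 1.81-fold (Ets1) and 3.16-fold (Dcps) lower. St3gal4 was called at -0.94 ± 0.25 (SE), but both of its means lay under 5, as did those of Tirap (-0.04 ± 0.16, SE).

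Values of single arrays show that the shift was even in some genes of the stretch and less so in others. Rpusd4 read 7.76, 7.83, 7.64 and 7.90 in D- and 8.84, 8.79, 8.80 and 8.83 in WT, 2.04-fold lower (log2 difference -1.03 ± 0.10, SE, limma adjusted p = 9.87e-07). Foxred1 read 7.30, 7.20, 7.25 and 7.48 in D- and 8.56, 8.38, 8.64 and 8.69 in WT, 2.40-fold lower. Ets1 read 10.93, 10.96, 10.84 and 11.24 in D- and 11.73, 11.54, 12.10 and 12.01 in WT, with 4 of 4 probe sets called. In 7 of the 10 genes all D- arrays lay below all WT arrays, and the exceptions were Fli1, St3gal4 and Tirap. Fli1 read 7.575, 8.029, 6.808 and 7.469 in D- and 8.934, 7.967, 8.569 and 8.502 in WT. Fam118b was 2.64-fold lower, Pus3 2.53-fold, Fli1 2.03-fold and Srpr 1.85-fold. A second probe set of Dcps did not share the shift, at 6.80 in both lines.

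The 6 measured genes on each side of the stretch were not called, and they differed by -0.49 to 0.36. RefSeq lists 14 protein-coding genes inside, of which 12 had a probe set of their own on the array and 10 were measured. Over all 7265 windows of 9 neighbouring measured genes, the lowest median was -1.03, inside the stretch. The lowest with no gene of the stretch was -0.36, at Fgd2, and the highest 0.34. The ends of the stretch were set where the calls stopped. Uncalled flanks and a lowest window inside it therefore follow in part from that choice. The share of genes called per chromosome ran from 3.05% to 7.13% over the numbered chromosomes and X, with 5.65% on chromosome 9. The only other runs of 3 or more were the Naip genes and Eif2d, Rassf5 and Ikbke on chromosome 1. Leaving out 1 array at a time kept 8 or 9 of the 10 genes called lower. Within the first array cluster, with 2 untreated arrays a line, 3 were called at a median of -0.94. St3gal4 was the gene that lost its call without an array (D- replicate 2, 3 or 4 or WT replicate 1, 3 or 4, limma adjusted p up to 0.0958).

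**Figure D3:**
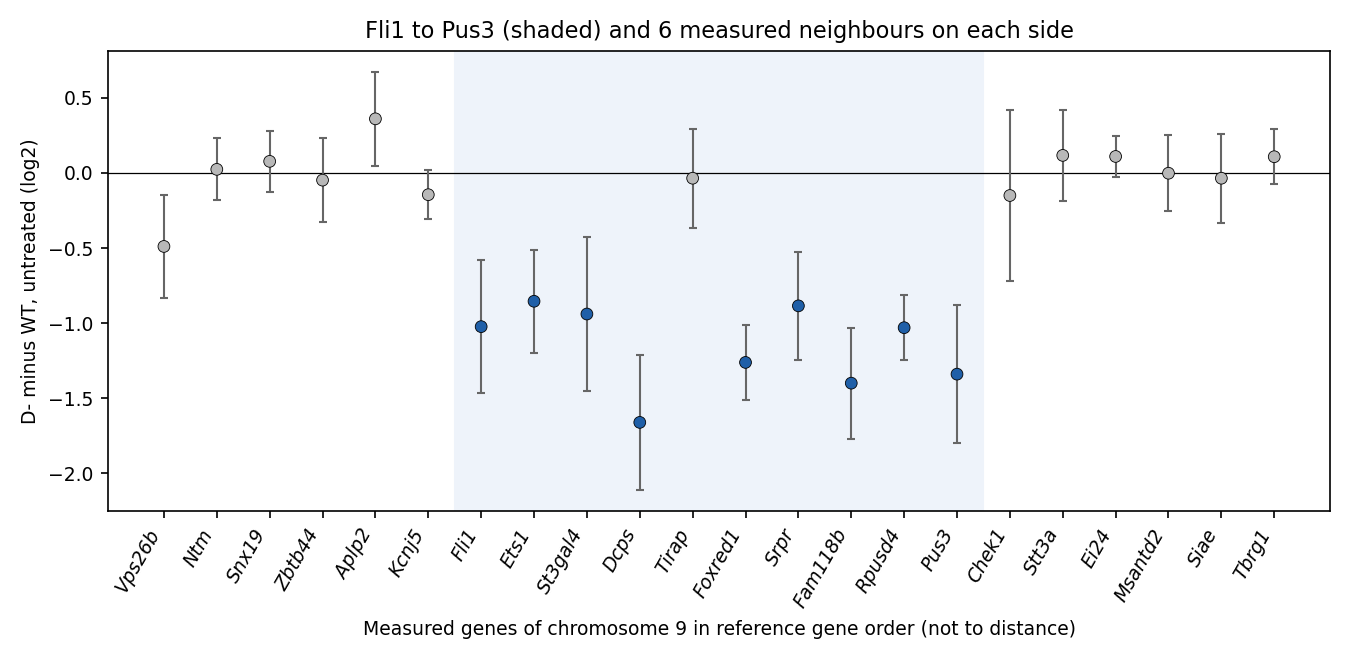
Line difference (untreated D- minus untreated WT, log2, with 95% interval) of 22 measured genes of chromosome 9 in reference gene order, with the stretch from Fli1 to Pus3 shaded and called genes in blue. Inside the shading 9 of 10 genes lie between -0.85 and -1.66, and the 12 flanking genes lie between -0.49 and 0.36.

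Because Fli1 and Ets1 encode ETS factors, the promoters of called genes were searched for the letters CCGGAAG or CTTCCGG, the core of ETS sites on either strand. They occurred in 5.91% of the 186 promoters of genes called lower and in 7.96% of the 113 of genes called higher, against 16.0% of all 6109. Of the 4 promoters printed above, that of Slfn4 holds a match. The cAMP response element TGACGTCA occurred in 2.15%, 3.54% and 2.75%. Both motifs contain a CG pair. The median count of these was 13 in genes called lower, 16 in genes called higher and 17 in all. Whether the CG count bears on the shares of either motif was not tested. A match is a run of letters and not a shown site.

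Of 24 measured genes of the cAMP and PKA pathway 1 was lower and 1 higher (8.33%, against 5.0% of all genes), and the median was -0.06. Adcy7, an adenylyl cyclase, read 8.14, 8.64, 8.31 and 8.55 in D- and 9.07, 8.98, 9.29 and 8.96 in WT, 1.59-fold lower (log2 difference -0.66 ± 0.16, SE, limma adjusted p = 0.0163). Pkig, a small inhibitor of the PKA catalytic subunit, read 10.32, 10.57, 10.68 and 10.54 in D- and 9.95, 9.88, 9.20 and 9.52 in WT, 1.86-fold higher (limma adjusted p = 0.0110). Neither gene overlapped between the lines. The call of Adcy7 was lost without D- replicate 1 or WT replicate 3 (limma adjusted p up to 0.071), and that of Pkig without WT replicate 3 (0.0544).

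The subunits of PKA were not called. The catalytic subunit gene Prkaca differed by -0.09 (95% interval -0.39 to 0.22) and the regulatory subunit gene Prkar1a by -0.09 (-0.29 to 0.10), intervals that hold no change of 2-fold. Of 18 genes of the CREB family and its targets (11.1% called), the kinase gene Pim1 was 2.02-fold lower and Btg2, which slows proliferation, 2.53-fold higher. Pim1 read 6.43, 6.47, 6.33 and 6.60 in D- and 7.50, 7.05, 7.44 and 7.89 in WT, and Btg2 9.99, 9.97, 10.26 and 10.50 against 8.61, 8.995, 9.18 and 8.58. These 2 targets of CREB thus differed in opposite directions. Crem lay under log2 5 in both lines.

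None of the 19 measured BH3-only and effector death genes was called, where 5.0% of all genes were, and the median was -0.009. In 2 of them the arrays did not overlap, as in 11.6% of all genes. Bcl2l11, which encodes Bim, read 9.34, 9.69, 9.16 and 9.58 in D- and 9.19, 8.86, 9.05 and 9.13 in WT. The lines overlapped, and the difference was 0.38 (95% interval -0.04 to 0.81, limma adjusted p = 0.443), with D- the higher of the 2 means. The death receptor gene Fas differed by 0.45 (-0.14 to 1.04). Bnip3 had the widest spread, with D- arrays at 9.20, 5.33, 8.14 and 7.14 and WT arrays at 9.84, 7.28, 7.12 and 9.49, and an interval of -2.81 to 0.85.

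Of 18 survival genes Pim1 was the 1 called (5.56%, against 5.0% of all genes), and the median was 0.01. Mcl1 read 10.98, 10.79, 11.16 and 11.38 in D- and 10.90, 10.85, 11.16 and 11.17 in WT, a difference of 0.06 (95% interval -0.23 to 0.34). Bcl2 differed by 0.18 (-0.11 to 0.48). The lines overlapped in both genes. The glucocorticoid receptor gene Nr3c1 differed by 0.14 (-0.31 to 0.59), and of 20 genes on the glucocorticoid list Klf13 was called (5.0%, as over all genes), 1.36-fold higher. Its call was lost without D- replicate 2 or 3 or WT replicate 1, 2 or 4 (limma adjusted p up to 0.143).

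None of 8 measured genes of cytotoxic granules and the Ctla2 family was called, where 5.0% of all genes were. Gzmb, which encodes granzyme B, read 10.91 on D- replicate 1 and 4.46, 5.92 and 6.00 on the others, against 4.61 to 4.74 in WT. One D- array thus made most of the difference of 2.13 ± 0.99 (SE, limma adjusted p = 0.345). Ctla2a, related to cysteine protease propeptides, read 4.35, 4.25, 4.85 and 4.54 in D- and 5.37, 4.97, 5.86 and 5.20 in WT (limma adjusted p = 0.196), and Ctla2b lay under 5 in both lines.

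**Figure D4:**
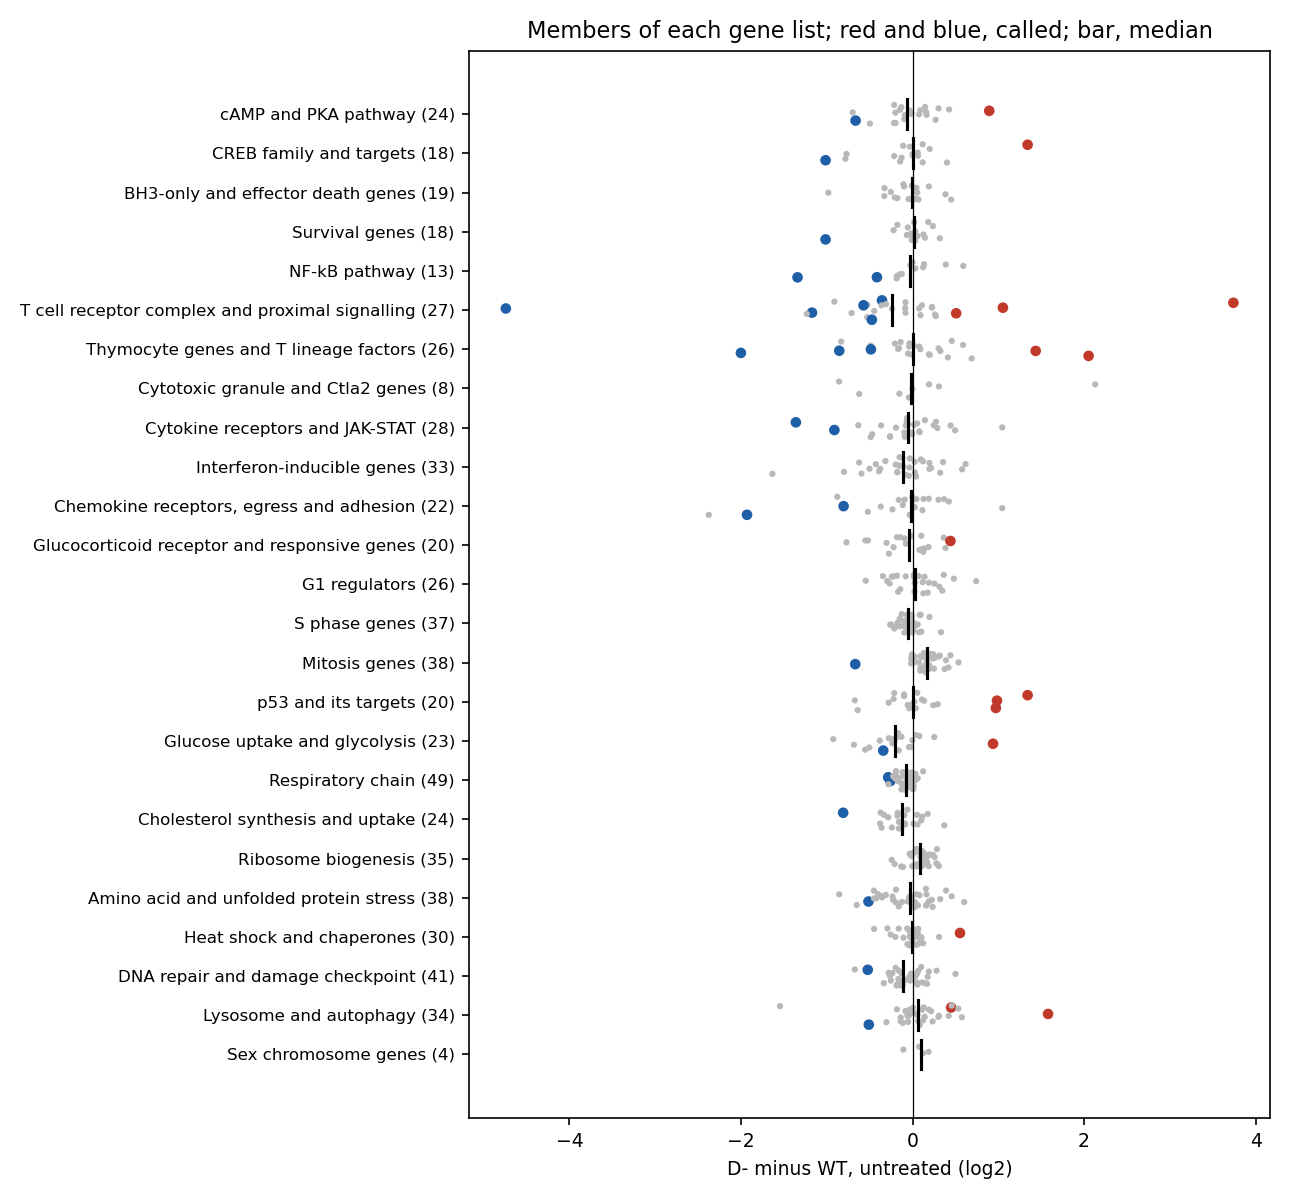
Line difference (untreated D- minus untreated WT, log2) of every measured member of 25 gene lists, with the number measured in brackets, called genes in red (higher) or blue (lower), others in grey and the list median as a bar. Medians lie between -0.24 (T cell receptor list) and 0.17 (mitosis list).

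None of 26 G1 regulators and none of 37 S phase genes was called, where 5.0% of all genes were. The G1 regulators lay between -0.55 and 0.74 and the S phase genes, which include the replicative helicase genes, between -0.26 and 0.33. The G1 gene at the upper end was E2f5, a partner of the pocket proteins, which read 7.05, 7.51, 7.22 and 7.76 in D- and 6.36, 6.43, 6.98 and 6.80 in WT. The lines did not overlap for E2f5 (limma adjusted p = 0.113), and it was called in 4 alternatives (with array weights, with the array cluster or, over 26 arrays, the replicate number as a block, and over the mean of its probe sets). The cluster block takes out part of the spread by its making and is no check of this gene. Of 38 mitosis genes 34 lay above 0 at a median of 0.17, against -0.004 over all genes. Whether these genes vary independently of each other was not tested. The 1 called (2.63%) went the other way: Bub1b, a kinase of the spindle checkpoint, was 1.59-fold lower. Its call was lost without D- replicate 1, 2 or 4 or WT replicate 2, 3 or 4 (limma adjusted p up to 0.0932). Myc differed by 0.07 (95% interval -0.51 to 0.65), and its arrays followed the cluster, at 10.03, 9.87, 11.04 and 11.14 in D- and 10.12, 10.01, 10.98 and 10.67 in WT. The 35 ribosome biogenesis genes had no call and a median of 0.09, where 5.0% of all genes were called.

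Of 20 p53 targets 3 were higher, where 1.91% of all genes were, and none lower, at a median of 0.007. Besides Btg2 these were Zmat3, an RNA-binding protein, 1.98-fold, and the stress gene Gadd45b, 1.96-fold. Zmat3 read 7.63, 8.26, 7.77 and 7.62 in D- and 6.62, 6.96, 6.99 and 6.76 in WT. The call of Gadd45b was lost without D- replicate 1, 2 or 4 or WT replicate 3 or 4 (limma adjusted p up to 0.172). Of 41 DNA repair genes 1 was lower (2.44%), Prkdc, the catalytic subunit of DNA-dependent protein kinase, 1.44-fold. Its call was lost without D- replicate 1, 3 or 4 or WT replicate 2, 3 or 4 (up to 0.15).

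Metabolic and stress lists held 1 to 3 calls each, which was 8.70% of the glycolysis list, 8.82% of the lysosome list, 4.08% of the respiratory chain, 4.17% of the cholesterol, 2.63% of the amino acid and unfolded protein stress and 3.33% of the chaperone list, against 5.0% of all genes. Of 23 genes of glucose uptake and glycolysis 19 lay below 0, at a median of -0.20, against -0.004 over all genes. Ldhb, a subunit of lactate dehydrogenase, rose 1.92-fold. Ldhb read 12.20, 12.66, 12.13 and 12.07 in D- and 11.58, 11.39, 10.99 and 11.34 in WT, with 4 of 4 probe sets called. The other call was Pdk3, a kinase of pyruvate dehydrogenase, 1.27-fold lower. Of 34 lysosome and autophagy genes, the cathepsin genes Ctsl (2.99-fold) and Ctsb (1.37-fold) rose and Uvrag, of autophagosome maturation, fell 1.42-fold. Of 49 respiratory chain genes, the complex I genes Ndufb3 and Ndufa10 fell 1.22- and 1.20-fold. Of 24 cholesterol genes the sterol reductase gene Tm7sf2 fell 1.75-fold, of 38 genes of amino acid and unfolded protein stress the serine synthesis gene Psph fell 1.43-fold, and of 30 chaperone genes Hsph1 rose 1.47-fold.

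Several of these calls depended on single arrays. Those of Pdk3 and Ndufa10 were lost in 7 of 8 fits that each left out 1 array (limma adjusted p up to 0.156 and 0.16), all but that without D- replicate 3 for Pdk3 and that without WT replicate 4 for Ndufa10. That of Ndufb3 was lost in 6, all but those without D- replicate 3 or WT replicate 2 (up to 0.165). That of Psph was lost without D- replicate 1 or 4 or WT replicate 4 (up to 0.0658), that of Hsph1 without D- replicate 4 or WT replicate 3 or 4 (up to 0.060) and that of Tm7sf2 without WT replicate 4 (0.0623). Of the sex chromosome list 4 genes were measured and none called, and Xist, Eif2s3y, Kdm5d and Uty lay under log2 5 in both lines.

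The line differences were also read in the 18 treated arrays, which share no array with the untreated means. They do share the fit, so their spread entered the error of the untreated calls and their levels the filter. Of the 372 genes called before treatment, 355 (95.4%) differed in the same direction between treated D- and treated WT cells at 2 h, 349 (93.8%) at 6 h and 334 (89.8%) at 24 h, and 311 (83.6%) at all 3 times. Over all 7435 genes the shares were 68.0%, 67.5% and 61.3%, and 39.9% at all 3 times. In the same direction 207, 194 and 242 of the 372 were called at the 3 times (55.6%, 52.2% and 65.1%), and 116 at every time (31.2%). Over all genes the same-direction shares were 6.19%, 6.74% and 21.9%, and 2.65% at every time, and the lines differed in either direction in 6.7%, 7.32% and 30.3%. None was called in the opposite direction at 2 or 6 h, and 10 were at 24 h. Of the 116 genes that differed 2-fold or more, 108 (93.1%) kept their direction at every time and 68 (58.6%) were called at every time. These are line differences under treatment and not repeats of the untreated state.

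The genes with the largest untreated differences kept their direction at each time. Where a mean lay under log2 5, the differences given here are fitted values and not bounds. Ifitm2 differed by -7.48, -4.92 and -8.10 at 2, 6 and 24 h, Cd247 by -4.63, -5.28 and -5.73, and Lsp1 by -4.62, -4.69 and -4.27 (log2, D- minus WT). Slfn4 differed by 5.41, 5.54 and 6.04, and Cd2 by 3.22, 4.78 and 4.94. Ptcra was less even, at 2.18, 0.18 and 2.31. The chromosome 9 stretch had medians of -1.10, -1.10 and -1.24, with 7 of its 10 genes called lower at each time. Lgals9 moved towards equal levels, at -3.99, -3.47 and -2.28.

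Over all genes, the treated line difference itself differed from the untreated one in 0.242% at 2 h, 0.592% at 6 h and 12.3% at 24 h. For 12 of the 116 genes the line difference was called at no treated time. Among those described here, Btg2 went from 1.34 untreated to 0.35, 0.19 and 0.40 at 2, 6 and 24 h, Rag2 from 1.44 to -0.04, 0.88 and 0.34, and P2rx1 from 1.97 to 0.29, -0.26 and 0.53. Nfkbie went from -1.34 to -0.48, -0.66 and 0.56, and Fbln2, Esm1 and Plac8 were also of this kind. Of these, tests of the difference itself passed for Nfkbie at 24 h (interaction 1.90 ± 0.44, SE, limma adjusted p = 0.00600) and for Fbln2 at 6 and 24 h. For Btg2, Rag2, P2rx1, Esm1 and Plac8 they did not pass at any time (limma adjusted p between 0.0657 and 0.9999 over the 3 times).

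**Figure D5:**
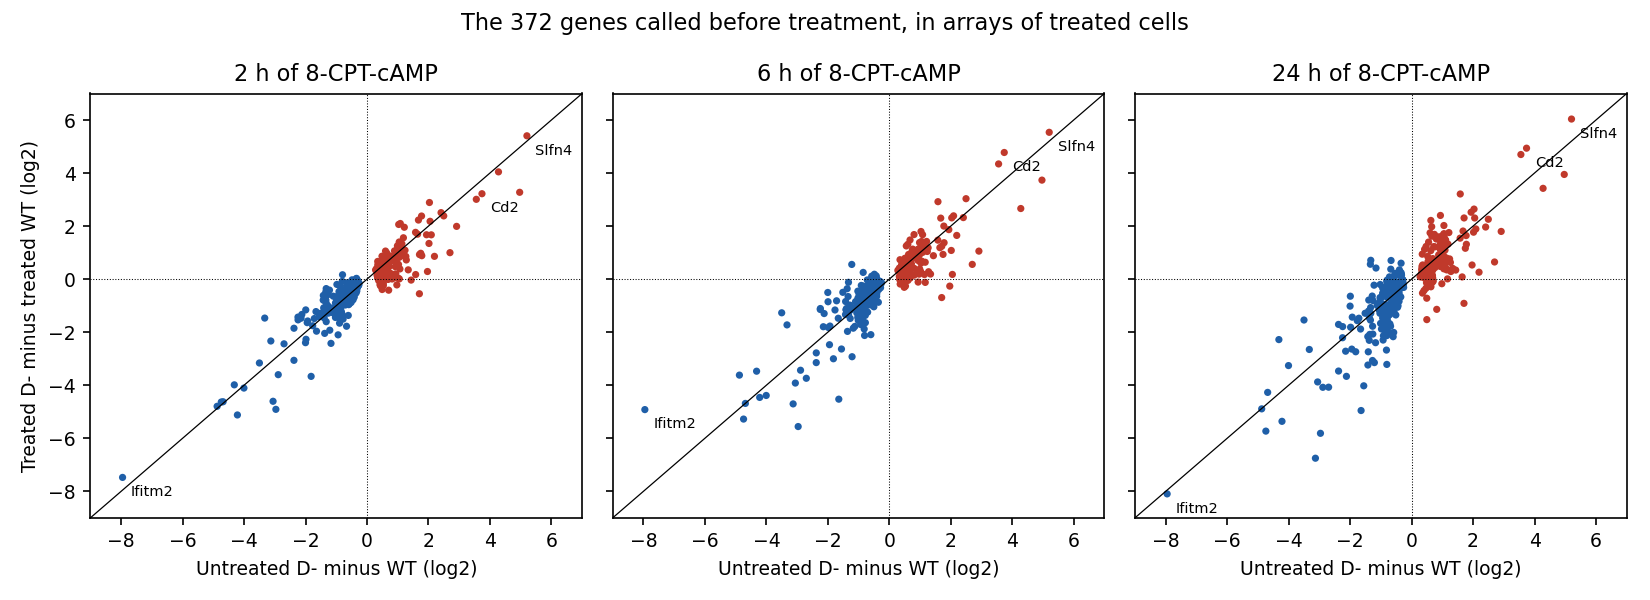
Line difference (D- minus WT, log2) in treated cells at 2, 6 and 24 h (vertical axes) against the untreated line difference (horizontal axes) for the 372 genes called before treatment, blue for lower and red for higher. Points on the diagonal have equal differences, and the same sign was found in 355, 349 and 334 genes.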

How the data were processed

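RNA of 26 S49 cell samples was labelled as biotin cRNA and hybridised to single-colour Affymetrix mouse arrays, 1 per sample. The deposited values are linear intensities for each probe set, made by the authors with GCRMA per the submitters' processing notes (version not stated). Which arrays were normalized together is not stated there. They carry no detection calls, and the number of arrays limits the precision. After log2 with no pseudocount, 12724 probe sets at 5 or more on at least 3 of 26 arrays were tested, and 64 control probe sets were left out. The platform annotation names 1 gene for 20380 of 22626 probe sets, several for 691 and none for 1555. Each gene is represented by its brightest probe set, averaged over the 26 arrays.

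The comparison was fitted with limma 3.58.1 (lmFit and eBayes, R 4.3.3) over all 26 arrays with 8 group means and 18 residual degrees of freedom, and adjusted by Benjamini-Hochberg over all probe sets tested. A call is an adjusted p under 0.05, and all p-values given are from this two-sided test. Data of 12724 probe sets were simulated with these levels and spreads and with noise independent between probe sets and arrays. Changes of 0.5, 1 and 2 on the log2 scale were recovered in 31.3%, 86.6% and 98.5% of cases. There were 7 false calls among the probe sets given no change. Deviations shared across probe sets, such as those of the array clusters, were not simulated, so these rates need not hold in the real data. Named genes are the 15 largest differences each way among called genes without overlap and with both means at or above 5, the 12 largest bounds each way, up to 5 called members of each gene list or else its 2 largest, a set of death, PKA and T cell genes, and runs of 4 or more neighbours called one way. Tirap, Naip5, Naip6, Cd3d, Vav1 and Ly9 were added after their values were seen. The comparison, the gene lists and these rules were chosen with earlier results of these data known.

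Alternatives were the variance model, array weights, the 8 arrays alone, normalization, the filter, the rule for several probe sets, the replicate number and the array cluster as blocks, each cluster alone, and each array left out. Promoters are RefSeq sequences of GRCm38.p6, and gene order came from the RefSeq gene table. The titles of treated WT samples say untreated where their source says treated, and the source was followed.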

Additional observations from a re-analysis of the deposited data

Results flagged for a closer look

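On 8 of 246 sets of 4 untreated arrays tested, 1 array stood apart from the other 3 by Dixon's criterion, where chance gives about 1 in 20. Untreated D- replicate 2 read 3.168 for Epsti1 (the others 4.638 to 4.80), 4.388 for F13a1 (4.916 to 5.021) and 6.399 for Olfml3 (5.557 to 5.603). Untreated D- replicate 1 read 6.017 for Tox (5.041 to 5.171) and 4.435 for Rasal3 (4.892 to 4.932). Untreated WT replicate 4 read 6.233 for Il12rb1 (6.586 to 6.636) and 12.41 for Ndufa10, and WT replicate 3 read 10.1 for Arpp21 (9.821 to 9.866). No array was apart in more than 3 of these genes.

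For 29 of 123 named genes the line difference under 8-CPT-cAMP differed from the untreated one, by limma's interaction term with an adjusted p under 0.05. By time these were 2 genes at 2 h, 5 at 6 h and 28 at 24 h. Over all genes the shares were 0.242%, 0.592% and 12.3%. The named genes were picked by the rules above, so these counts describe a chosen set. Values here are the treated minus the untreated line difference on the log2 scale, and fitted values where a mean lay under 5. At 2 h they were -1.944 for Lgals7 and -2.48 for Ctla2a. At 6 h they were 3.035 for Ifitm2, -2.593 for Lgals7, -2.144 for Fbln2, -3.072 for Ctla2a and -4.222 for Ctla2b. The Ifitm2 value goes with a D- mean of 5.03 at 6 h, against 1.92 untreated.

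At 24 h, among genes lower in untreated D- cells, the line difference widened by -0.9877 for Cd247, -2.848 for Lgals7, -1.373 for Pdlim2, -1.546 for Cst7, -2.466 for Rasal3, -0.8102 for Foxred1, -1.225 for Lcp2 and -3.623 for Naip5. Lgals7 was higher at 24 h than untreated in both lines, with means of 5.67 against 4.10 in D- and 11.48 against 7.07 in WT. The change had the other sign for the rest, at 2.039 for Lgals9, 1.904 for Nfkbie, 1.371 for Bub1b, 0.6788 for Arpp21 and 0.588 for Pdk3. Among genes higher in untreated D- cells, the change was -1.933 for Tsc22d1, -2.053 for Fbln2, -1.562 for Galnt4, -1.157 for Zmat3 and -0.9185 for Fam160a2, and 1.627 for Ak4, 1.464 for Olfml3 and 0.8445 for Hsph1. Genes that were not called before treatment changed too: -4.888 for Ctla2a, -6.468 for Ctla2b, -2.729 for Crem, -1.622 for Bcl2l11, 2.89 for Rag1, 1.263 for Orc6 and 0.8019 for Rfc2.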

How the results depend on the processing

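In 22 alternatives no named gene changed sign where it was called in the main fit or in the alternative. Uncalled genes did change sign, among them Rag1 (-0.15 to 0.76), Myc (-0.13 to 0.29) and Prkaca (-0.28 to 0.11). Of 96 named genes called, 24 were called in all 22 and 4 more (Itgal, Galnt4, Selenom and Gja1) in each that tested them, since the filter at log2 7 removed them. Of the 96, 66 were lost within the first array cluster, 15 within the second, 14 in the 8 untreated arrays alone and 22 without at least 1 array. Those lost in the 8 arrays alone included Fli1 (limma adjusted p = 0.0874), Cadm1 (0.0601) and P2rx1 (0.0572). The 577 calls became 1050 with array weights (429 higher, 621 lower), 943 with the array cluster as a block (394 higher, 549 lower), 67 within the first cluster (35 higher, 32 lower, all 67 at 2-fold or more) and 889 within the second (569 lower, 314 at 2-fold or more). Called genes of the lists, 38 in all, became 74, 70, 7 and 68 in that order, and those of the chromosome 9 stretch 3 within the first cluster. Each single-cluster fit holds 2 untreated arrays a line and the treated arrays of that cluster. What these treated arrays add to the gap between 67 and 889 calls was not tested. The cluster block takes out part of the spread by its making. The cause of the shift with array weights was not tested. Leaving out 1 array gave 380 to 530 calls, 151 to 231 higher, 221 to 316 lower, 168 to 222 at 2-fold or more, 26 to 42 list genes and 8 or 9 in the stretch. The fewest calls, and the fewest lower ones, came without D- replicate 4, and the fewest higher ones without WT replicate 4. The other settings gave 450 to 574 calls.

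With a replicate block, 432 probe sets were called in the 8 untreated arrays (190 higher, 242 lower, 339 shared with the 577) and 779 in all 26 (319 higher, 460 lower, 571 shared). In the 8 arrays this block left 21 of the 96 named genes uncalled, among them Cd8b1 (limma adjusted p = 0.0612), Cd3d (0.0806), Vav1 (0.156), Ly9 (0.105), Tox (0.0614), Fli1 (0.129), Adcy7 (0.0616), Pkig (0.0577) and Mcam (0.0614), and called Ctla2a (0.0127). In all 26 it left none uncalled. The labels do not say that a number marks shared cultures. Deviations of same-numbered D- and WT arrays correlated at 0.31, 0.20, 0.04 and 0.27, and D- replicates 3 and 4 correlated best with WT replicates 4 and 3, so the numbers were not taken as pairs.

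Changes below 2-fold were recovered less often in simulated data, intensities under log2 5 have no order here, and 4 arrays a line of 1 D- line carry no information on other deathless lines.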
